A study of Mus musculus with 2 samples.

Results

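The transcription factor Gata3 and 9 other factors that set the fate of T cells (Tbx21, Bcl6, Bach2, Zbtb7b, Id2, Id3, Tcf7, Lef1 and Satb1) were followed in regulatory T (Treg) cells of injured mouse muscle. These 10 genes were taken by symbol from a table of 23337 gene symbols, and each was found there. Treg cells are the CD4 T cells that restrain immune responses and are defined by the factor Foxp3. One library came from mice whose leg muscles received cardiotoxin, which destroys muscle fibres, together with 0.3 ug of recombinant IL-33, a cytokine released by damaged tissue. The other came from mice given cardiotoxin with PBS. In both groups the mice were males aged 8 weeks of the Foxp3-IRES-GFP/C57BL/6 background, so all carried the green fluorescent Foxp3 reporter, and muscle was taken 4 days after injury. Each library was made from 5000 sorted Treg cells, and how many mice gave cells is not given in the sources used here. Values "with IL-33" and "with PBS" are those of the 2 libraries. With 1 library per group there is no replicate check and no test: "higher" and "lower" compare the 2 libraries. Every interval covers counting error only and leaves out the spread between mice or libraries. Amplified reads are not independent molecules, so the intervals may be too narrow even for that error.

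A naive CD4 T cell is held in its state by Tcf7 and Lef1, the related HMG-box proteins TCF-1 and LEF-1, and by Satb1 and Bach2. Lineage factors then commit the cell: Zbtb7b (ThPOK) to the CD4 lineage, Tbx21 (T-bet) to type 1 responses, Gata3 to type 2 responses and Bcl6 to follicular help. Treg cells borrow the same factors, and Gata3 is known from Treg cells of barrier tissues that carry the IL-33 receptor. Id2 and Id3 lack a DNA-binding region and act by capturing the E proteins, basic helix-loop-helix factors that bind DNA at the E box.

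Library totals were 4080791 counts with IL-33 and 1573707 with PBS, so 1 count equals 0.245 CPM, the count per 1000000 counts of its library, with IL-33 and 0.635 CPM with PBS. The Treg genes Ctla4 (6186 against 6246 CPM) and Ikzf2 (1681 against 1925 CPM) were abundant in both. The 10 Treg markers summed to 12388 CPM with IL-33 and 13187 CPM with PBS, with members on both sides. Il2ra (613 against 851 CPM), Tnfrsf4 (782 against 1000 CPM) and Lrrc32 (42.1 against 71.2 CPM) stood lower with IL-33. Tnfrsf18 (565 against 478 CPM) and Tigit (11.5 against 1.91 CPM, from 47 and 3 counts) stood higher. Foxp3, the gene that defines the sorted cells, was thinly counted, with 40 counts with IL-33 and 1 with PBS. The 9 T cell markers measured summed to 4980 CPM with IL-33 and 4655 CPM with PBS. Cd4 stood at 543 CPM with IL-33 and 526 CPM with PBS, and the 10 markers of CD8 T or NK cells summed to 27.2 and 26.7 CPM. Of these, Cd8b1 was at 21.6 CPM with IL-33 and 13.3 CPM with PBS (88 and 21 counts), with a ratio interval of 0.995 to 2.74. Klrk1 was at 2.45 and 10.8 CPM (10 and 17 counts), and 5 markers, Cd8a among them, were at 0 in both. Pax5 and Ebf1 (B cells), Cd68 (macrophages) and Pax7 (muscle stem cells) also had 0 counts in both. Other B cell markers were counted. Cd79b was at 29.7 CPM with IL-33 and 23.5 CPM with PBS (121 and 37 counts), with a ratio interval of 0.866 to 1.88. Blk had 26 counts with IL-33 and 1 with PBS. Of the 10 dendritic cell markers 5 were over 5 CPM in a library, and the list summed to 27.7 CPM with IL-33 and 94.7 CPM with PBS, but its members lay on both sides. H2-Aa (18 with IL-33 and 97 with PBS), H2-Ab1 (7 and 19) and Itgax (0 and 19 counts) made the sum lower, while Siglech (28 and 2), Zbtb46 (18 and 0) and Xcr1 (42 and 12 counts) had higher CPM with IL-33, Xcr1 with a ratio interval that held 1. The 10 monocyte or macrophage markers measured summed to 22.1 and 59.1 CPM. Among them Lyz2 was lower with IL-33, at 19.1 CPM against 38.8 CPM with PBS (78 and 61 counts), and Ms4a7 had 0 and 25 counts. C1qb, at 4 and 1 counts, had the higher CPM with IL-33. Of the 10 fibroblast markers, Thy1, which T cells also express, gave the whole sum of 148 CPM with IL-33. With PBS the sum was 277 CPM, of which Col3a1 gave 78 counts, Dcn 24 and Pdgfra 2, each at 0 with IL-33. What part these cells have in the values of the lineage factors was not tested. In bulk RNA, fewer cells of a type and less RNA per cell cannot be told apart.

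Most counts of the lineage factors came from a single pair of genes. Id2 held 58.7% of the 4538 counts of the 10 genes with IL-33 and 42.2% of the 1377 with PBS, and Gata3 held 22.3% and 35.7%. Over a floor of 5 CPM in at least 1 library stood 9 of the 10. Id3, at 4.90 and 0 CPM, stayed under it. On log2 values of CPM plus 1, Bach2 was at least 2-fold higher with IL-33, against 15.5% of the 9005 genes over the floor. Zbtb7b and Tcf7 were at least 2-fold lower, against 16.3% of those genes, and the other 6 were within 2-fold. Bach2, Zbtb7b and Tcf7 each passed the floor only through the library where the gene stood higher. In the other library Bach2 was at 4.45 CPM, and Zbtb7b and Tcf7 were at 1.23 CPM each. At a floor of 20 CPM no factor was past 2-fold. The median log2 fold of the 9 was 0.03, beside -0.08 over all 9005 genes. A share of 1 or 2 in 9 lies near these backgrounds. The exact interval of the ratio left out 1 for 6 of the 9, beside 63.7% of all genes over the floor: it lay above 1 for Bach2, Id2 and Lef1 (28.6% of all) and below 1 for Gata3, Zbtb7b and Tcf7 (35.1% of all). Those shares too are near the background.

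**Figure D1:**
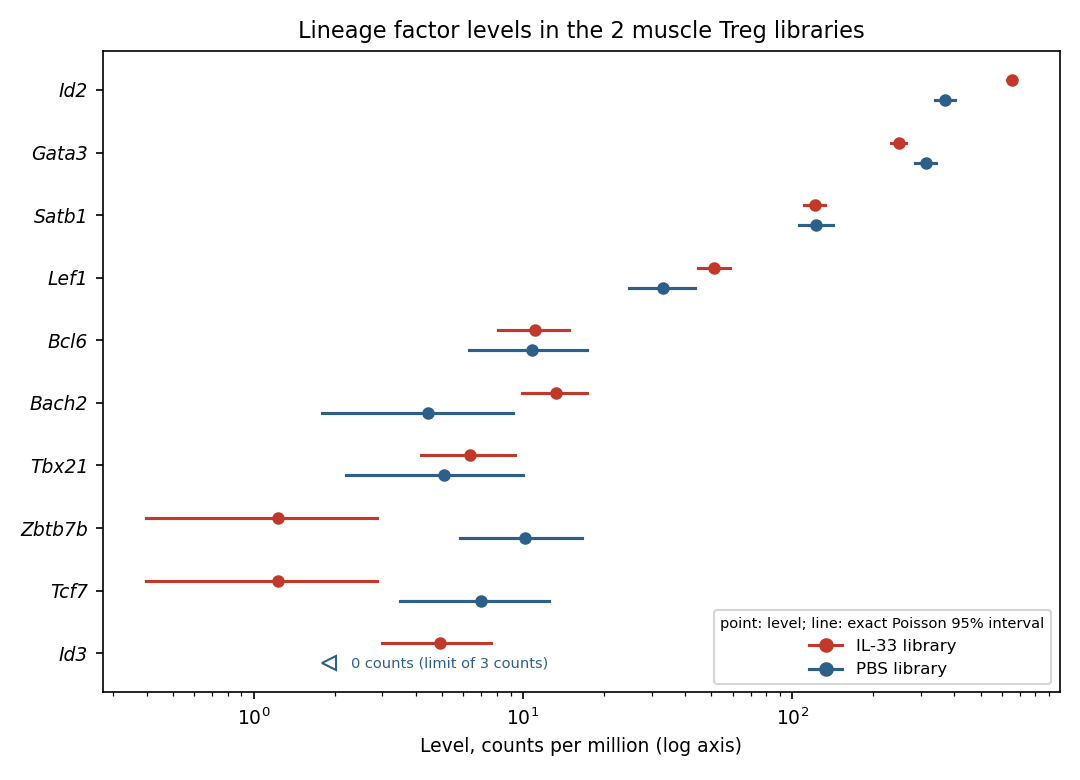
Level of each of the 10 lineage factors in CPM (log axis), in IL-33 (red, upper point of each pair) and PBS (blue, lower point) libraries, with the exact Poisson 95% interval as a line. Id2 and Gata3 stand highest in both libraries, Zbtb7b and Tcf7 lie at 1.23 CPM with IL-33, and Id3 had 0 counts with PBS, drawn at the limit that 3 counts allow.

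Gata3, the zinc finger factor of type 2 cells (ENSMUSG00000015619.10; mm10 chromosome 2, 9857078 to 9890034, minus strand), had 1014 counts with IL-33 and 492 with PBS. That is 248 CPM (exact Poisson 95% interval 233 to 264) with IL-33, against 313 CPM (286 to 342) with PBS. The IL-33 library thus held the lower level, and the 2 counting intervals did not overlap. Had the IL-33 library held the PBS level, 1276 counts would be expected there. The ratio of 0.795 moved between 0.743 and 0.864 over 4 other ways of scaling the libraries, all under 1. Among the 990 genes averaging at least 200 CPM, the central 80% of log2 folds ran from -0.54 to 0.45, and Gata3, at -0.33, lay inside that range with 242 genes lower. In that range of level 74.3% of genes had an interval that left out 1, so an interval that leaves out 1 is common there.

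Genes tied to Gata3 in type 2 and tissue Treg cells lay on both sides. Of the 18 listed, 14 were over the floor, 8 with a log2 fold above 0 and 6 below. By 2-fold or more, 3 were higher and 0 lower, and 11 stayed within 2-fold. Of all genes over the floor, 15.5% were higher and 16.3% lower. The median log2 fold of the list was 0.37, or 0.09 at a floor of 20 CPM, beside -0.08 over all genes at the main floor. Il1rl1, the IL-33 receptor, stood at 843 CPM with IL-33 and 584 CPM with PBS, and the receptor gene Klrg1 at 555.3 and 357 CPM. Maf, a factor of IL-10 production, went the other way, at 651 CPM with IL-33 and 899 CPM with PBS. The 3 higher genes, Il17rb, Il9r and Pparg, had 29, 26 and 122 counts with IL-33 and 0 with PBS. They passed the floor only through the IL-33 library, and any such gene at 0 with PBS is called higher by the rule used. The median is the same with them at their lower bounds. Il4 and Il13, the type 2 cytokine genes that Gata3 drives in helper cells, had 0 counts in both libraries, and Il5, the third, had 10 with IL-33 and 0 with PBS. Of the 10 listed markers of innate type 2 lymphoid cells, Hs3st1, Calca and Arg1 had 0 counts in both. Rnf128, like Il5, had a few (12 with IL-33 and 2 with PBS). Gata3, Il1rl1, Bcl11b and Cxcr6 of the same list were over the floor. What part such cells have in these values was not tested.

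Tbx21, the T-box factor of type 1 cells (ENSMUSG00000001444.2; chromosome 11, 97098071 to 97115331), was thinly counted. It had 26 counts, or 6.37 CPM (4.16 to 9.34), with IL-33 and 8 counts, or 5.08 CPM (2.19 to 10.02), with PBS. The intervals overlapped, and the ratio of 1.25 had an interval of 0.551 to 3.20, so neither a direction nor a difference of up to 3.20-fold can be settled at this depth. Gata3 took 97.5% of the counts of Gata3 plus Tbx21 with IL-33 (exact Clopper-Pearson interval 96.4 to 98.4) and 98.4% with PBS (96.9 to 99.3). Divided by merged exon length, its share was 96.1% with IL-33 and 97.5% with PBS. This share needs no scaling between libraries, and its intervals overlapped.

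Type 1 genes, of which 13 of 18 were over the floor, had a median of -0.19, beside -0.08 over all genes. At least 2-fold higher were 0 and lower 4, beside 15.5% and 16.3% of all genes. Of the 4 lower, Ccl3 had only 13 counts in each library and Ccl4 21 with IL-33 and 29 with PBS. Cxcr3, the chemokine receptor gene that T-bet is known to drive, was at 277 CPM with IL-33 and 299 CPM with PBS. The interferon-gamma receptor chain Ifngr1 was at 1629 and 1553 CPM, and its partner chain Ifngr2, one of the 4 lower genes, at 13.2 CPM with IL-33 and 33.7 CPM with PBS, a ratio of 0.393 (0.264 to 0.585). Il12rb1, a chain of the IL-12 receptor, was at 21.6 CPM with IL-33 and 48.3 CPM with PBS, and Ccl5, a chemokine, at 60.5 and 33.7 CPM. Ifng and Eomes, the T-box relative of Tbx21, had 1 count each with IL-33 and 0 with PBS.

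Id2 was the most abundant of the factors in both libraries and stood higher with IL-33. The gene (ENSMUSG00000020644.9; chromosome 12, 25093799 to 25097140) had 2666 counts, or 653 CPM (629 to 679), with IL-33, against 581 counts, or 369 CPM (340 to 400.5), with PBS. The IL-33 library was the higher one by a ratio of 1.77 (1.62 to 1.94), and the ratio ran from 1.65 to 1.92 over the other scalings. Of the 990 genes at 200 CPM or more, 25 had a higher log2 fold than Id2 (0.82) and 964 a lower one. Only 1.21% of them were at least 2-fold higher, and Id2 itself was not. Dendritic cells also express Id2, and their markers, given above, moved in both directions. Their part in the Id2 value was not tested.

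Id3 (ENSMUSG00000007872.3; chromosome 4, 136143497 to 136145755), its relative, had 20 counts, or 4.90 CPM (2.99 to 7.57), with IL-33 and 0 with PBS, where 7.71 counts would be expected at the IL-33 level. The exact Poisson upper limit for the 0 counts with PBS was 2.34 CPM. The bounds used here set 0 at 3 counts instead, or 1.91 CPM, which gives a bound of 2.57-fold higher with IL-33. That bound takes the 20 counts as they stand: it was 2.40 under T cell marker scaling, and the exact interval, which also allows for their counting error, had a lower limit of 1.90. The other members of the family, Id1 and Id4, had 0 counts in both libraries. Id2 therefore made up 99.3% of Id2 plus Id3 counts with IL-33 (98.9 to 99.5) and all 581 with PBS, where the lower limit was 99.4%. Those intervals overlapped.

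Of the E proteins that Id2 and Id3 capture, the 2 over the floor stood lower with IL-33, Tcf12 with an interval that held 1. The third, Tcf4 (E2-2), was under the floor, with 18 counts with IL-33 and 1 with PBS. Tcf12 (HEB) stood at 68.1 CPM with IL-33 and 82.0 CPM with PBS, a ratio of 0.831 (0.672 to 1.03). Tcf3 (E2A) stood at 55.4 CPM with IL-33 and 77.5 CPM with PBS, a ratio of 0.714 (0.571 to 0.898). Id2 took 90.6% of Id2 plus Tcf12 counts with IL-33 (89.4 to 91.6) and 81.8% with PBS (78.8 to 84.6), and 92.2% (91.1 to 93.1) and 82.6% (79.6 to 85.4) of Id2 plus Tcf3 counts. Neither pair of intervals overlapped, so the gap does not rest on the scaling. How often the shares of other gene pairs lie apart was not measured. For single genes, the ratio interval left out 1 for 63.7% of all genes over the floor. The balance of Id2 to Tcf12 was 2.13 times as high with IL-33, and that of Id2 to Tcf3 2.48 times. Id3 took 6.71% of Id3 plus Tcf12 counts with IL-33 (4.15 to 10.2) and 0 of 129 with PBS. The list of E proteins and other helix-loop-helix genes had 5 of 12 over the floor. By 2-fold, 0 were higher and 2 lower, beside 15.5% and 16.3% of all genes. Beside -0.08 over all genes, the list had a median of -0.76 (-0.48 with no floor). The E proteins themselves, Tcf3 (-0.48) and Tcf12 (-0.26), lay nearer 0 than that median, which is the value of Mxi1. The lower members of the list were Bhlhe40, a repressor of cytokine genes, at 191 CPM with IL-33 and 416 CPM with PBS, and Usf2, at 12.3 and 29.9 CPM. Mxi1, a partner of Max, was at 104 and 178 CPM.

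**Figure D2:**
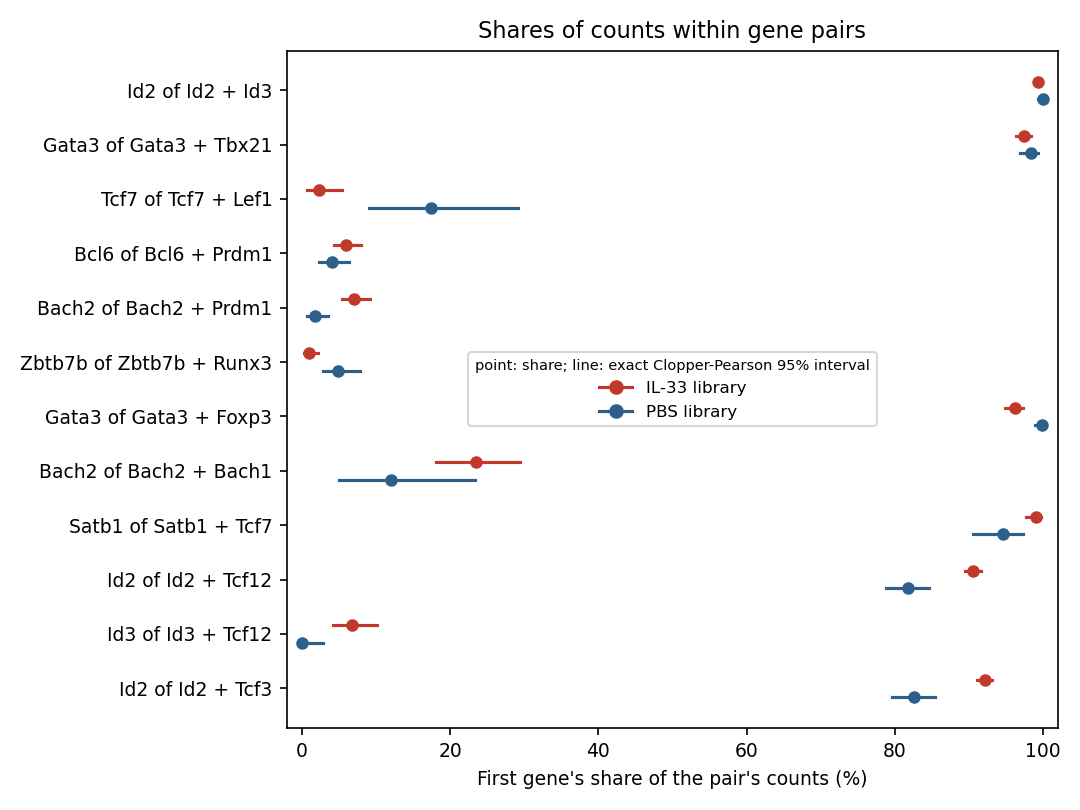
Share of the first gene in the summed counts of each of 12 gene pairs (percent), in IL-33 (red, upper point) and PBS (blue, lower point) libraries, with exact Clopper-Pearson 95% intervals as lines. Shares are of raw counts and so also reflect transcript length. Id2 holds 90.6% of Id2 plus Tcf12 counts with IL-33 and 81.8% with PBS, and Tcf7 holds 2.34% and 17.5% of Tcf7 plus Lef1 counts.

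The HMG-box pair parted. Lef1 (ENSMUSG00000027985.14; chromosome 3, 131110471 to 131224356) had 209 counts, or 51.2 CPM (44.5 to 58.6), with IL-33 and 52 counts, or 33.04 CPM (24.7 to 43.3), with PBS. It was the higher with IL-33, at a ratio of 1.55 (1.14 to 2.14). Tcf7 (ENSMUSG00000000782.15; chromosome 11, 52252371 to 52283014) had 5 counts, or 1.23 CPM (0.398 to 2.86), with IL-33 and 11 counts, or 6.99 CPM (3.49 to 12.5), with PBS. At the PBS level 28.5 counts would be expected with IL-33. Its ratio was 0.175 (0.0477 to 0.547), with intervals that did not overlap. Within the pair, Tcf7 took 2.34% of counts with IL-33 (0.763 to 5.37) and 17.5% with PBS (9.05 to 29.1). Lef1 and Tcf7 lie at levels where 35.3% (10 to 50 CPM) and 68.5% (under 10 CPM) of genes over the floor differed by 2-fold or more. Lef1 itself did not. The ratio interval left out 1 for 59.4% and 67.7% of genes at these levels. Of the 3511 genes at 10 to 50 CPM, 884 had a higher log2 fold than Lef1.

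Partners of Tcf7 and Lef1 had 15 of 21 over the floor, with a median of -0.14, beside -0.08 over all genes. By 2-fold, 2 were higher and 3 lower, beside 15.5% and 16.3% of all genes, and 10 lay within 2-fold. Ctnnb1, which encodes beta-catenin, the coactivator that both bind, stood at 173 CPM with IL-33 and 163 CPM with PBS. The kinase genes Csnk1a1 (315 and 315 CPM) and Gsk3b (150 and 147 CPM) were also at like levels. Axin2, a target and brake of the pathway, was at 20.8 CPM with IL-33 and 61.0 CPM with PBS, a ratio of 0.341 (0.252 to 0.462), and Myc, another known target, had a ratio of 2.34 (1.59 to 3.54), with 46.1 CPM with IL-33 and 19.7 CPM with PBS. The corepressor gene Tle1 had 0 counts with IL-33 and 24 with PBS. Ctbp2, one of the 2 higher genes, had 39 with IL-33 and 0 with PBS. Tle1 and Ctbp2 each passed the floor only through the library where they were counted. Tcf7l2 had 0 counts in both, and Tcf7l1 had 4 with IL-33 and 0 with PBS.

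Satb1, a chromatin organiser needed for Treg development (ENSMUSG00000023927.15; chromosome 17, 51736187 to 51833290), was the closest to equal. It had 494 counts, or 121 CPM (111 to 132), with IL-33 and 193 counts, or 123 CPM (106 to 141), with PBS. The ratio was 0.987, and its interval of 0.834 to 1.17 does not reach a 1.5-fold difference in either direction. It lay between 0.923 and 1.07 over the scalings and so has no settled direction. Satb1 took 99.0% of Satb1 plus Tcf7 counts with IL-33 (97.7 to 99.7) and 94.6% with PBS (90.6 to 97.3).

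Bach2, a repressor that holds T cells from effector fate (ENSMUSG00000040270.16; chromosome 4, 32238804 to 32586108), had 54 counts, or 13.2 CPM (9.94 to 17.3), with IL-33. It had 7 counts, or 4.45 CPM (1.79 to 9.16), with PBS. The IL-33 library was the higher at a ratio of 2.97 (1.35 to 7.75), and the intervals of the levels did not overlap. Among the 1928 genes over the floor with a mean under 10 CPM, 37.2% were 2-fold higher or more and 648 had a higher log2 fold than Bach2. Its relative Bach1 stood at 43.1 CPM with IL-33 and 32.4 CPM with PBS, and Bach2 took 23.5% of the pair's counts with IL-33 (18.2 to 29.5) and 12.1% with PBS (4.99 to 23.3), which overlapped. Bach2 is also a B cell gene. The 9 B cell markers measured summed to 42.6 CPM with IL-33 and 29.2 CPM with PBS, with Cd79b the highest, and Pax5 and Ebf1 at 0. Their part in the Bach2 value was not tested.

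Bcl6, a repressor that commits T cells to follicular help (ENSMUSG00000022508.5; chromosome 16, 23965052 to 23988852), had 45 counts, or 11.03 CPM (8.04 to 14.8), with IL-33. It had 17 counts, or 10.8 CPM (6.29 to 17.3), with PBS. The levels were alike and the ratio of 1.02 had an interval of 0.573 to 1.90, which leaves room for a difference of 1.5-fold either way. Prdm1 (Blimp-1), which Bcl6 and Bach2 are known to repress, stood at 173 CPM with IL-33 and 255 CPM with PBS. Bcl6 took 5.98% of Bcl6 plus Prdm1 counts with IL-33 (4.39 to 7.92) and 4.06% with PBS (2.38 to 6.42), which overlapped. Bach2 took 7.09% of Bach2 plus Prdm1 counts with IL-33 (5.37 to 9.15) and 1.71% with PBS (0.691 to 3.49), which did not. No background of other gene pairs was measured to set beside this.

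Follicular genes numbered 14 over the floor of 18, with a median of -0.26, beside -0.08 over all genes. At least 2-fold higher were 0 and lower 1, beside 15.5% and 16.3% of all genes. Btla, an inhibitory receptor, was the lower one, at 21.6 CPM with IL-33 and 59.1 CPM with PBS. Icos was at 1990 and 2031 CPM, Pdcd1 (PD-1) at 129 and 180 CPM, and Tox, a factor of CD4 development and exhaustion, at 177 and 107 CPM. Ascl2 and Tox2 had 0 counts in both. Cxcr5, the follicular homing receptor, was at 9.07 CPM with IL-33 and 5.08 CPM with PBS (37 and 8 counts). Its ratio of 1.78 had an interval of 0.817 to 4.43, which holds 1. Naive and memory genes had 16 of 18 over the floor and a median of -0.27. By 2-fold, 2 were higher and 3 lower, beside the same shares of all genes. Ccr7, a lymph node homing receptor, was at 30.6 CPM with IL-33 and 89.0 CPM with PBS, and Klf2, a factor of T cell circulation, at 95.3 and 212 CPM. Il7r, the IL-7 receptor chain, was at 1089 CPM with IL-33 and 1252 CPM with PBS. Of the higher pair, Bcl2 had 61 counts and Actn1 23 with IL-33, and both had 0 with PBS, so both passed the floor only through the IL-33 library.

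Zbtb7b, the factor that fixes the CD4 lineage (ENSMUSG00000028042.15; chromosome 3, 89377644 to 89394776), had 5 counts, or 1.23 CPM (0.398 to 2.86), with IL-33. It had 16 counts, or 10.2 CPM (5.81 to 16.5), with PBS, and the IL-33 library was the lower, at a ratio of 0.121 (0.0345 to 0.344). At the PBS level 41.5 counts would be expected with IL-33. The antisense gene Gm15417 shares 116 nt of exon with Zbtb7b and had 1 count with IL-33 and 7 with PBS. No source used here says whether counting used strand, so reads of this pair cannot be told apart where they overlap. Opposite-strand genes outside the 23337 symbols also share exon with Lef1 (Gm43352, 1208 nt), Bach2 (Bach2os, 537 nt) and Gata3 (Gm13256, 155 nt). Satb1 (Gm6934, 128 nt) and Bcl6 (Gm37419, 21 nt) have such overlaps too. What these genes add to the counts was not tested. Runx3, which Zbtb7b opposes in the CD4 and CD8 choice, stood at 126 CPM with IL-33 and 196 CPM with PBS, and Zbtb7b took 0.963% of the pair's counts with IL-33 (0.314 to 2.23) and 4.92% with PBS (2.84 to 7.87). Both Zbtb7b and Tcf7 lie at a mean under 10 CPM, where 31.3% of such genes were 2-fold lower or more, with 289 and 361 of the 1928 below them.

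**Figure D3:**
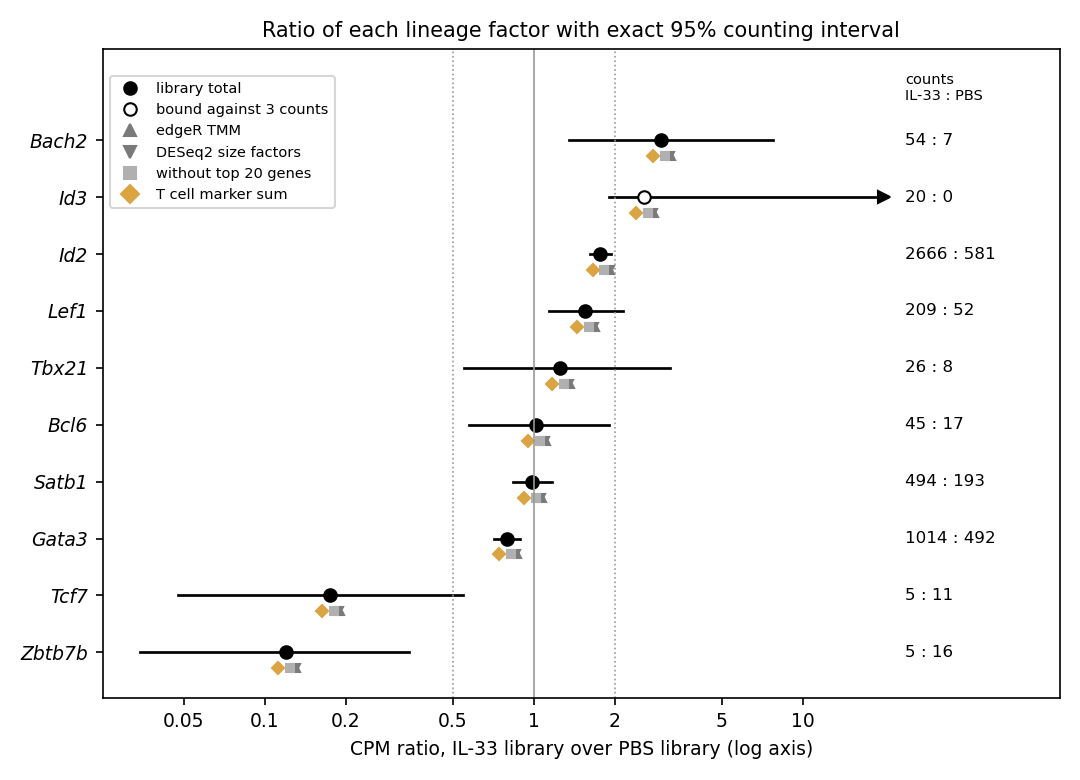
Ratio of CPM, IL-33 library over PBS library (log axis), for each lineage factor, with the exact 95% counting interval and the raw counts at the right. Small grey and yellow marks show the ratio under 4 other scalings of the libraries. Bach2, Id2 and Lef1 lie above 1 with their intervals, Gata3, Tcf7 and Zbtb7b lie below 1, and Id3 is a lower bound.

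The sequence before a RefSeq start is shown for Bach2 and Zbtb7b, factors past 2-fold in opposite directions, on GRCm38.p6, as 250 bases that end at the base before it. Both starts are internal to the gene as GENCODE draws it, so neither stretch lies before the gene coordinates given above. Capitals mark E boxes (CANNTG), the sites of the E proteins that Id2 and Id3 capture. Bach2 (the higher one) is chr4:32417185-32417434, plus strand. Zbtb7b (the lower one) is chr3:89387672-89387921, minus strand, before the second of 2 starts listed, chosen because no base of it lies in a GENCODE exon. The stretch before the first start, not shown, has 152 of its bases in exons. For Tcf7, the other lower factor, the stretch before the first listed start holds an ATG-led reading frame of 55 codons with no stop before its end, and it is not shown.
Bach2: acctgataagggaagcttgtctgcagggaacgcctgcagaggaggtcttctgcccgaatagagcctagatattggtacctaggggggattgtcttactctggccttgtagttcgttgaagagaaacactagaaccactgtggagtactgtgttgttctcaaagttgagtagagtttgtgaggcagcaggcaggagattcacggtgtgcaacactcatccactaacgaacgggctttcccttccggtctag
Zbtb7b: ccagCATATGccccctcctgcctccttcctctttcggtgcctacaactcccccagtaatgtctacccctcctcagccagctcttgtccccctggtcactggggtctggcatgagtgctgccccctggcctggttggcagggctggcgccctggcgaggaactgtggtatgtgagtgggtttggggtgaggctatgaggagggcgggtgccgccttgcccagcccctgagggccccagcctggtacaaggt

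The Bach2 stretch held no E box and that of Zbtb7b 1, where the stretch before the first Zbtb7b start held 2. Over all 32851 stretches of this length before a RefSeq start, 66.2% held at least 1 E box on either strand, which is its own reverse complement. The GATA core (GATAA, both strands) was in 22.6% of stretches, and of the pair shown it was in Bach2 alone. A TCF/LEF core (CTTTGA or CTTTGT, both strands) was in 27.6%, and again in Bach2 and not in Zbtb7b. Over the 20 stretches listed for the 10 factors, 12 held an E box, 3 a GATA core and 5 a TCF/LEF core.

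**Figure D4:**
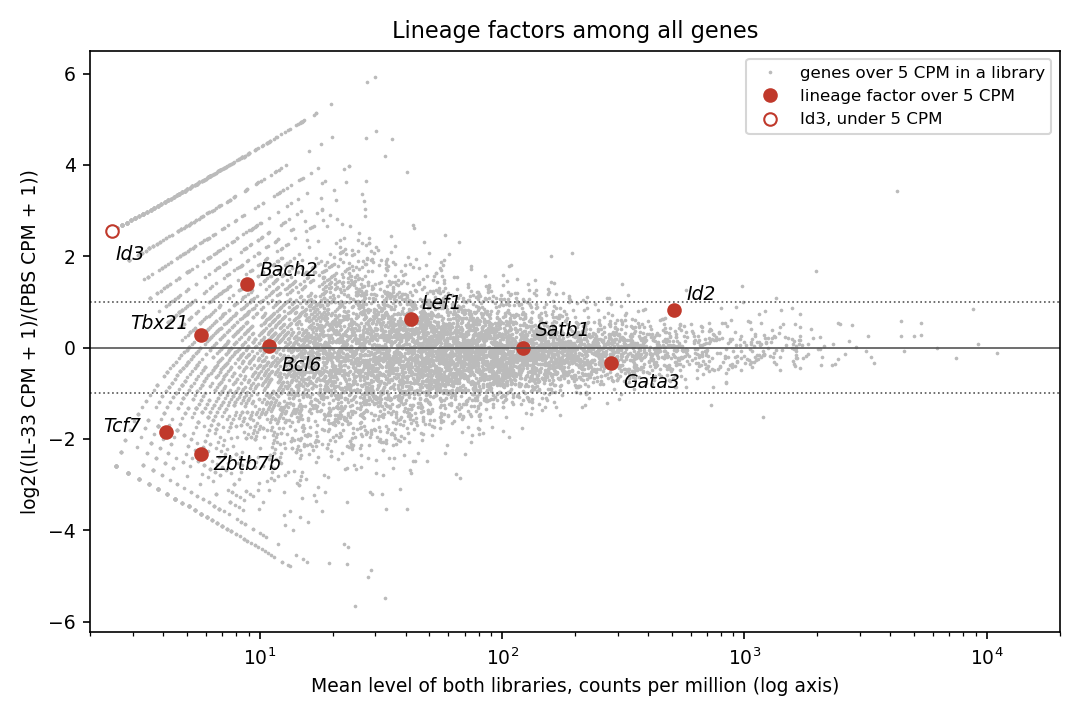
Log2 fold (IL-33 over PBS, on CPM plus 1) against the mean CPM of both libraries (log axis) for the 9005 genes over 5 CPM in a library (grey), with the lineage factors in red and Id3, under that floor, as an open circle. Dotted lines mark 2-fold. Bach2, Tcf7 and Zbtb7b lie in the wide part of the cloud at low level, and Id2, at 0.82, lies near its upper edge at high level.

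By level per length, which allows genes to be compared, the order at the top was the same in both libraries. Using CPM per kb of merged exon, Id2 led with 268 with IL-33 and 151 with PBS, above 97.8% and 96.6% of the 8893 genes over the floor with a known length. Gata3 followed with 62.5 and 78.6, above 91.3% and 92.9%. Satb1 had 6.36 and 6.45 and Lef1 5.83 and 3.76, and their intervals overlapped with IL-33 and not with PBS. The merged exons of Satb1 (19027 nt) are far longer than its longest transcript (6243 nt), on which its level per kb would be 19.4 with IL-33 and 19.6 with PBS.

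Below these 4 the order differed. In the IL-33 library Id3 (2.74), Tbx21 (2.56), Bcl6 (1.65) and Bach2 (1.33) came next, each overlapping the one after it, then Tcf7 (0.467) and Zbtb7b (0.219), which also overlapped. In the PBS library Tcf7 (2.66) came next, overlapping Lef1, with Tbx21 (2.04), Zbtb7b (1.82) and Bcl6 (1.61) after it and overlapping in turn, then Bach2 (0.447), apart from Bcl6, and Id3 at 0. Tcf7 and Zbtb7b thus held the lowest places with IL-33 and Bach2 and Id3 with PBS.

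Most relatives by family were under the floor. Of 25 measured, 8 were over the floor, with a median of 0.16 (0.27 at a floor of 20 CPM). By 2-fold, 2 were higher and 1 lower, beside 15.5% and 16.3% of all genes. Another 10 had 0 counts in both libraries, among them Gata1, Gata2, Gata4 and Bcl6b. Zbtb1, a zinc finger factor of lymphoid development, was the most abundant, at 180 CPM with IL-33 and 271 CPM with PBS. Zbtb25 was at 32.1 CPM with IL-33 and 12.1 CPM with PBS, a ratio of 2.66 (1.64 to 4.56). The other higher relative, Zbtb32, had 25 counts with IL-33 and 0 with PBS, and passed the floor only through the IL-33 library. The lower one, Zbtb20, was at 4.66 CPM with IL-33 and 17.8 CPM with PBS, and passed only through the PBS library. The corepressors and DNA partners had 26 of 28 over the floor, with 0 higher and 2 lower, beside the same shares of all genes. Their median was -0.08, as over all genes, and is 0.04 under TMM and DESeq2 scaling. Ncor1, a corepressor that Bcl6 recruits, was at 874 CPM with IL-33 and 993 CPM with PBS, and Chd4, of the NuRD complex, at 486 and 439 CPM. The lower genes were Maff, a small MAF protein of the family that Bach2 pairs with, at 27.4 CPM with IL-33 and 84.5 CPM with PBS, and Nfe2l1, at 11.8 and 31.8 CPM. Runx2 stood at 122 CPM with IL-33 and 69.9 CPM with PBS. Zfpm1 (FOG-1), a cofactor of GATA proteins, had 0 counts with IL-33 and 3 with PBS.

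Other lineage factors had 22 of 23 over the floor, with a median of -0.31 (-0.46 at a floor of 20 CPM), beside -0.08 over all genes. By 2-fold, 1 was higher (Foxp3) and 2 lower (Zeb1 and Myb), beside 15.5% and 16.3% of all genes. The other 19 lay within 2-fold. Foxp3, at 9.80 CPM with IL-33 and 0.635 CPM with PBS, passed the floor only through the IL-33 library. Myb, a factor of T cell development and of effector Treg cells, was at 14.0 CPM with IL-33 and 58.5 CPM with PBS, a ratio of 0.239 (0.169 to 0.336). Zeb1, a repressor of the E box, was at 29.7 and 69.3 CPM, and Bcl11b, a factor of T cell commitment, at 410 and 623 CPM. Ikzf3 (Aiolos) was at 237 and 413 CPM and Ikzf4 (Eos) at 33.8 and 17.8 CPM. Gata3 took 96.2% of Gata3 plus Foxp3 counts with IL-33 (94.9 to 97.3) and 99.8% with PBS (98.9 to 99.99), a share set by the single Foxp3 count there. Over all the lists, 167 distinct genes other than the 10 were measured and 123 were over the floor. Of these, 10 (8.13%, beside 15.5% of all genes) were at least 2-fold higher and 18 (14.6%, beside 16.3%) at least 2-fold lower, with a median of -0.15. Most of the higher ones (Il17rb, Il9r, Pparg, Actn1, Bcl2, Zbtb32, Ctbp2 and Foxp3) passed the floor only through the IL-33 library. Zbtb25 and Myc were over it in both. Of the lower ones, Tle1, Igfbp4, Ccl3 and Zbtb20 passed only through the PBS library.

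**Figure D5:**
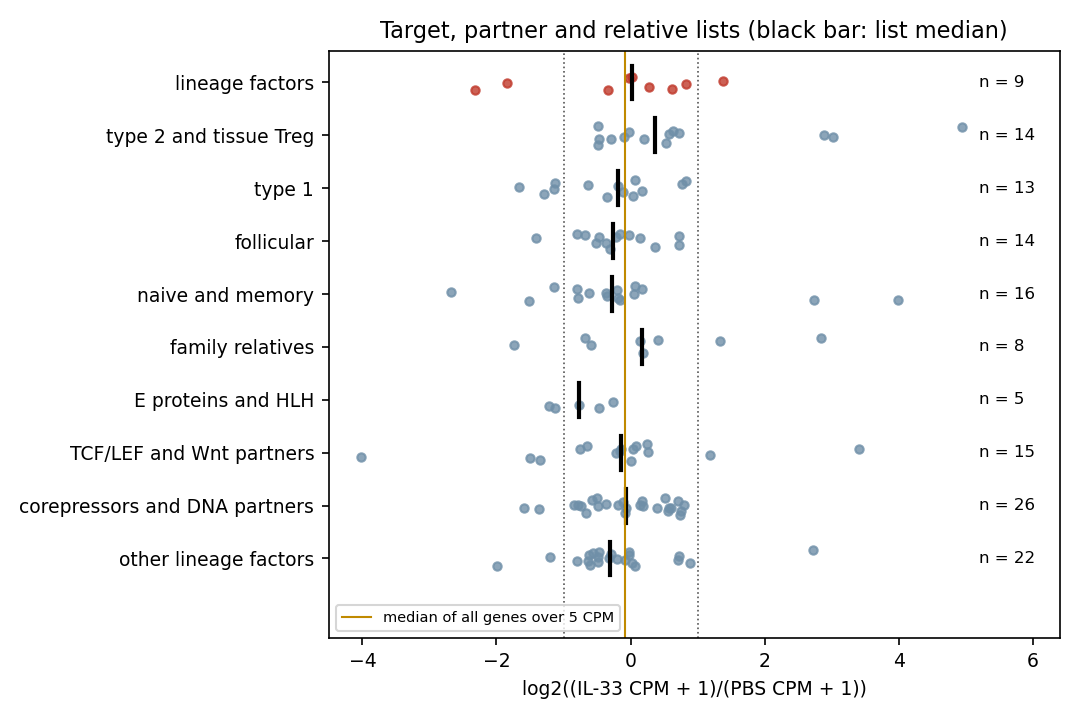
Log2 fold (IL-33 over PBS, on CPM plus 1) of each gene over 5 CPM in the lineage factor set (red) and in 9 lists of targets, partners and relatives (blue), with the list median as a black bar. Dotted lines mark 2-fold and the yellow line the median of all genes, -0.08. At this floor, the list of E proteins and other helix-loop-helix genes has a median of -0.76 on 5 genes, of which Tcf3 and Tcf12 are E proteins, and the type 2 and tissue Treg list a median of 0.37 on 14 genes, which is 0.09 at 20 CPM.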

How the data were processed

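RNA of 2 libraries of muscle Treg cells, 1 per treatment, was analysed. Per the labels' protocols, poly(A) RNA was made into cDNA, amplified, cut with a transposon and sequenced as paired 25 bp reads. The authors deposited raw counts per gene symbol. The build mm10 and the tools Cufflinks 2.2.1 and TopHat2 2.0.10 are named, per the submitters' processing notes. Which program and annotation gave the counts, and whether strand was used, is not given in the sources used here.

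CPM is the count divided by the library total, times 1000000. Genes with 5 CPM or more in a library were compared on log2(CPM + 1), which shrinks the differences of thinly counted genes, and called at 2-fold. Ratios are of CPM without the pseudocount, with exact conditional 95% intervals; levels have exact Poisson and shares exact Clopper-Pearson intervals. A fold against 0 counts is a bound against 3 counts in that library. With 1 library per group nothing was tested. Positions and lengths come from GENCODE M21 (GRCm38, the assembly of mm10), which matched 22776 of 23337 symbols.

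The members and lists were chosen with earlier results of these data known. Besides the 10 factors and the gene pairs, the rule named the 4 most abundant genes of each list and the 3 farthest from 0 at 20 CPM or more; the text gives a selection of these, and any gene outside the rule (genes at 0, low-count list members, marker genes) was chosen after its values were seen. Alternatives were edgeR 4.0.16 TMM factors, DESeq2 1.42.0 size factors, totals without the 20 most abundant genes, other floors, pseudocounts and folds, and, chosen after seeing the data, the summed counts of T cell markers. Python 3.11.15 with scipy 1.17.1 and pandas 2.3.3 was used, and the computation was tested on simulated data.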

Additional observations from a re-analysis of the deposited data

How the results depend on the processing

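Over 4 other scalings of the libraries, all 40 recomputed ratios of the 10 factors stayed inside their main counting intervals, and 7 ratios had an interval that left out 1 under each scaling. TMM and DESeq2 scaling moved the median of all genes by 0.13 and 0.12 on the log2 scale and the T cell marker sum by -0.10. Bcl6 and Satb1 changed side of 1 among the scalings. The count of factors at least 2-fold higher, 1 in the main setting, was 2 under TMM, DESeq2 and no floor, since Id3 then passes the floor, 0 at a floor of 20 CPM, where 4 factors are left, 0 with a pseudocount of 5, and 3 at 1.5-fold, where 50.9% of genes pass in either direction. The count at least 2-fold lower, 2 in the main setting, was 0 at the floor of 20 CPM and 1 with a pseudocount of 5. The median of the factors, 0.03, was 0.26 under TMM, 0.25 under DESeq2, 0.15 with no floor, 0.30 at 20 CPM and -0.06 under the T cell marker sum. Of 123 list genes, 28 differed by 2-fold or more, and 16 did at the floor of 20 CPM. With median coding transcript length, 6 of 10 factors kept their rank by level with IL-33 and 6 with PBS. Of 72 recomputed list medians 25 moved by more than 0.1. Over all alternatives, the median ran from 0.09 to 0.49 for type 2 and tissue Treg genes, -0.29 to -0.07 for type 1, -0.36 to -0.15 for follicular, -0.37 to -0.15 for naive and memory, 0.07 to 0.32 for family relatives, -0.86 to -0.48 for helix-loop-helix genes, -0.24 to 0.02 for Wnt partners, -0.18 to 0.04 for corepressors and -0.46 to -0.19 for other lineage factors. At a floor of 20 CPM the family relatives (0.27), not the type 2 genes (0.09), had the highest median. No paired analysis was possible because each group holds 1 library. Depth limits Tbx21, Bcl6, Tcf7, Zbtb7b, Id3 and Bach2, each with under 20 counts in a library.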
